A study of Mus musculus with 21 samples.

Results

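Of 5812 regions bound by PSME3 in cycling C2C12 myoblasts, 195 (3.36%) also carried a PSME3 peak in a frozen preparation of cells differentiated for 2 days. These 195 sites are called kept, and the other 5617 are called lost. A cycling site was kept when it shared at least 1 bp with a peak of the frozen native or the frozen crosslinked day 2 list. Lost means that no day 2 peak was listed there, which is not a measurement of zero binding. C2C12 is an established mouse myoblast line, and binding was mapped by CUT&RUN, in which an antibody directs a nuclease to cut out the DNA around its target. Cycling cells grew in DMEM with 20% FBS and were frozen unfixed in 10% DMSO (n = 3 libraries for PSME3, n = 3 for the promoter mark H3K4me3). Day 2 cells had spent 48 h in 2% horse serum and were assayed fresh or after freezing in 10% DMSO, and either native or after 5 min in 0.1% formaldehyde, with 1 library per antibody and preparation. The cycling list of 5812 peaks was called by the authors on the 3 replicates together, so it is not independent of the replicate lists of 1200, 776 and 3070 peaks. The day 2 effect and the spread between day 2 cultures cannot be told apart with 1 library per preparation.

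PSME3, also called PA28γ or REGγ, is the nuclear activator of the proteasome and promotes the breakdown of proteins without ubiquitin. It is also known to associate with nuclear bodies and with chromatin. Serum withdrawal takes C2C12 myoblasts out of the cell cycle and into the muscle program, in which Myod1 and Myog, the bHLH regulators of myogenesis, switch on fusion and contractile genes. H3K4me3 marks the starts of active genes. The day 2 label held in the H3K4me3 lists. Starts of 7 of 7 genes of differentiating muscle (Myog, Mymk, Mymx, Ckm, Myh3, Tnnt1 and Actc1) carried a peak in each frozen day 2 list, against 1, 1 and 0 of 7 in cycling replicates 1 to 3, and 5 of 5 myoblast markers carried one in every list.

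The sequences below show upstream DNA at sites of either class, for the genes with the highest pooled fold enrichment that had a start in the promoter table. They are the 200 bases before the annotated start, 5′ to 3′ on the gene's strand, from RefSeq on GRCm38.p6, the assembly of the mm10 build. Capitals mark a GC box (GGGCGG or CCGCCC, the letters bound by Sp and Klf factors) or a CCAAT box (CCAAT or ATTGG). The 4 kept sites lay at Fbrs (chr7:127478758-127478957, plus strand), Tbl2 (chr5:135149486-135149685, plus strand), Mtrf1l (chr10:5823944-5824143, minus strand) and Myo6 (chr9:80164834-80165033, plus strand), and the PSME3 peak covered all 200 bases of each.
Fbrs: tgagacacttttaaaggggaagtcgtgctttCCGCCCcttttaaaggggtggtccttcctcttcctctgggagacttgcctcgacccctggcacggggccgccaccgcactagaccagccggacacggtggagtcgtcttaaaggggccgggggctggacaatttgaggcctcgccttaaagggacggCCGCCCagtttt
Tbl2: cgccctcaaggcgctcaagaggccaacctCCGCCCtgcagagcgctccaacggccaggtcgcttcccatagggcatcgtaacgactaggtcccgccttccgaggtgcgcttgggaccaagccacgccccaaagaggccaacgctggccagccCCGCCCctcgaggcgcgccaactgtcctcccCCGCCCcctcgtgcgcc
Mtrf1l: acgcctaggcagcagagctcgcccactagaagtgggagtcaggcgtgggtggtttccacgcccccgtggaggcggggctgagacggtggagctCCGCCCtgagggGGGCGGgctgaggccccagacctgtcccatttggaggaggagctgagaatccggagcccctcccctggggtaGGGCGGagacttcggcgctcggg
Myo6: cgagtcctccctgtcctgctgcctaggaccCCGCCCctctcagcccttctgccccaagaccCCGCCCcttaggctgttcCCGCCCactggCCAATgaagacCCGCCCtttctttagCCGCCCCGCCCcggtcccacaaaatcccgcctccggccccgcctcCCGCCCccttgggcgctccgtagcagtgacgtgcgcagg
The 3 lost sites lay at Zbtb22 (chr17:33915976-33916175), Rhpn2 (chr7:35334037-35334236) and Yju2 (chr17:55958987-55959186), all on the plus strand, with 177, 200 and 63 of the bases inside the peak.
Zbtb22: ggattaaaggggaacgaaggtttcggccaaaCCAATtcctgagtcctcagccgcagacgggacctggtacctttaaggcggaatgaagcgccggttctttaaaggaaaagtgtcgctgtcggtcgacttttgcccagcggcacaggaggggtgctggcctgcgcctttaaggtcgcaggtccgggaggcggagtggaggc
Rhpn2: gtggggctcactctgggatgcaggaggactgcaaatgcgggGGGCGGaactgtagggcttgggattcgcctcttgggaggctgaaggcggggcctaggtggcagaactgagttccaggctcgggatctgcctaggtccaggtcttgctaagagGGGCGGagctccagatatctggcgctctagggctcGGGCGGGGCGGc
Yju2: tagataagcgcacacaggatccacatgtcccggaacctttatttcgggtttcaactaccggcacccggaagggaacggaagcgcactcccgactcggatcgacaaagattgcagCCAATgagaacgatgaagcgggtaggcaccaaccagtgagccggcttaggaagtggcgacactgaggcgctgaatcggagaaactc
The kept promoters held 2, 3, 3 and 7 GC boxes, and the lost ones 0, 4 and 0. A CCAAT box was present once at Myo6, Zbtb22 and Yju2. These 7 promoters are examples, and the counts over all promoters follow further on.

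Of the pooled cycling sites, 195 of 5812 were kept (3.36%, 95% Clopper-Pearson interval 2.91 to 3.85). The frozen native list kept 181 (3.11%) and the frozen crosslinked list 74 (1.27%). Both lists kept 60 of the sites, the native list alone 121 and the crosslinked list alone 14. Read in each replicate list, the kept share was 136 of 1200 (11.3%), 113 of 776 (14.6%) and 181 of 3070 (5.9%), a mean of 10.6% ± 4.38 (SD, n = 3). The longest list had the lowest share. The intervals cover counting error over peaks only, and the peaks of a library are not replicates of it.

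By the 1 bp rule, few sites lay near the line between kept and lost. The smallest overlap of a kept site was 23 bp, the next 96 bp and the median 241 bp. The nearest lost site was 1011 bp from a frozen day 2 peak, the next 1292 bp, and the median lost site was 2486666 bp away. No lost site lay within 1 kb of a frozen day 2 peak. A stricter overlap kept fewer sites, 126 (2.17%) where the centre of the cycling peak had to lie in a day 2 peak and 53 (0.912%) where at least 50% of it had to be covered. The fresh day 2 lists were short, with 23 native and 18 crosslinked peaks. They overlapped 15 of the kept sites and 0 of the lost ones, and 11 kept sites were in all 4 day 2 lists.

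Nearly all frozen day 2 peaks stood where cycling cells already had one. Of 186 frozen native peaks, 181 lay at a cycling site and 156 were wholly inside one, and of 77 crosslinked peaks, 74 lay at a cycling site and 65 were wholly inside one. The day 2 peaks were narrow, with a median width of 242.5 bp in the native list and 256 bp in the crosslinked one. They were narrower than the cycling site in 169 of 181 and 71 of 74 cases, at a median of 0.349 and 0.338 of its width. Their centres lay a median of 93.5 bp and 107.5 bp from the centre of the cycling site. The crosslinked list was mostly a subset of the native one. The 60 shared peaks were 77.9% of the crosslinked list and 32.3% of the native list.

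Strength in cycling cells ordered the kept sites. The pooled list was ranked by −log10 of the q-value and divided into 10 rank groups of equal size. The highest group held 139 of the 195 kept sites, 23.9% of its 581 sites. The next groups kept 31 (5.34%), 9 (1.55%) and 6 (1.03%). None of the 1744 sites in the last 3 groups was kept, which allows a share of up to 0.172% (3 counts over the number of sites, the limit used for each count of 0 here). The median −log10 q was 6.22 at kept and 2.02 at lost sites, and the median fold enrichment over background 3.67 and 2.91. Ranks 1 to 8 by q were all kept sites away from gene starts. None of these had a cycling H3K4me3 peak, and each was also in a fresh day 2 list. Fold enrichment is the height of a peak over the local background, as the authors' peak caller gave it, and is compared here only within a list.

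Support by the replicates ordered them as well. Of pooled sites found in no replicate list, 7 of 2660 were kept (0.263%). With 1 replicate list the share was 35 of 2315 (1.51%), with 2 it was 53 of 609 (8.70%), and with 3 it was 100 of 228 (43.9%, interval 37.3 to 50.6). The step also held within the highest group by q, where 1 of 27, 10 of 166, 35 of 204 and 93 of 184 sites with 0, 1, 2 and 3 replicate lists were kept, the last of these 50.5%. In the next group, 6 of 34 sites with 3 replicate lists were kept (17.6%). Of sites found in 1 replicate list, 5 of 302 in replicate 1 alone (1.66%), 0 of 198 in replicate 2 alone (which allows up to 1.52%) and 30 of 1815 in replicate 3 alone (1.65%) were kept.

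**Figure D1:**
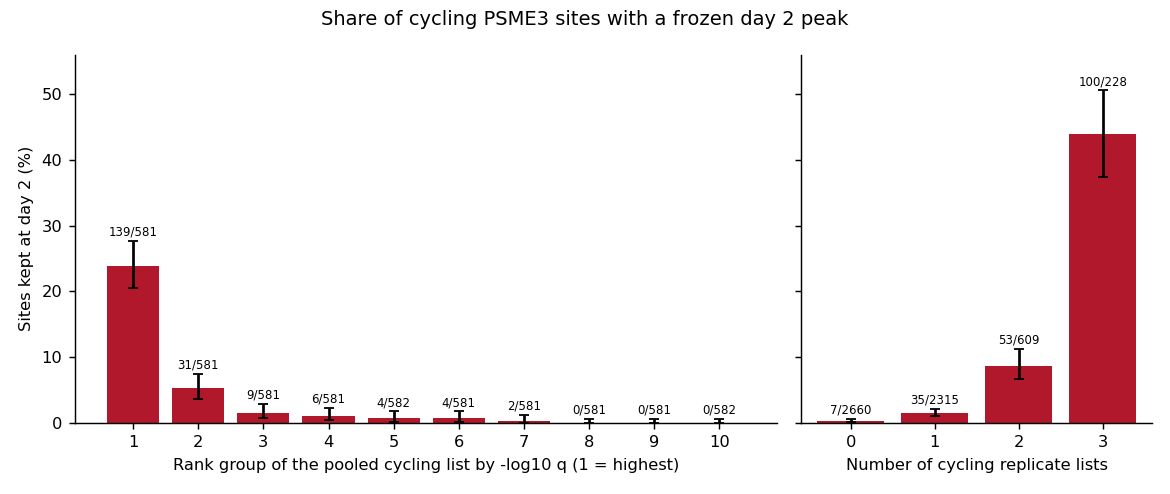
Share of pooled cycling PSME3 sites (%) with a frozen day 2 peak, by rank group of the list ordered by −log10 q (left) and by the number of cycling replicate lists with a peak there (right). Bars are shares, error bars 95% Clopper-Pearson intervals with kept sites over all sites printed on top. The share falls from 23.9% in the first group to 5.34% in the next, and reaches 43.9% at sites found in 3 replicate lists.

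Within each replicate list, kept sites recurred more often in another replicate than lost ones. The shares were 97.1% against 42.1% in replicate 1, 99.1% against 56.4% in replicate 2 and 82.3% against 21.5% in replicate 3. The mean difference was 52.8 percentage points ± 9.23 (SD, n = 3), higher at kept sites in 3 of 3 replicates (exact two-sided sign-flip permutation test, p = 0.25). Within the highest group by q it was 34.6 points, positive in 3 of 3. The p of 0.25 is the smallest that 3 replicates allow, so none of the comparisons over replicates given here could reach 0.05.

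Kept sites were wide. The median pooled width was 763 bp (quartiles 496.5 to 1156) at kept and 422 bp (292 to 647) at lost sites. In replicates 1 to 3 the medians were 430 against 228 bp, 411 against 280 bp and 635 against 386 bp. The log2 ratio of kept to lost medians averaged 0.73 ± 0.18 (SD, n = 3; positive in 3 of 3 replicates, exact sign-flip permutation test, two-sided p = 0.25). In 5 groups of rising width, from 206 to 273 bp up to 736 to 5830 bp, the kept share of pooled sites was 0.774%, 0.947%, 2.58%, 3.27% and 9.20%. Within the highest group by q it was 5.56%, 8.25%, 22.7%, 22.9% and 40.8%. The 1 bp rule favours wide sites, which offer more bases to meet a day 2 peak, and its part in the width difference was not tested. A rule that at least 50% of the cycling peak be covered favours narrow sites, because the day 2 peaks are narrow. By that rule the mean log2 ratio over replicates was 0.29, positive in 3 of 3, and that of the pooled list fell from 0.85 to 0.10.

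**Figure D2:**
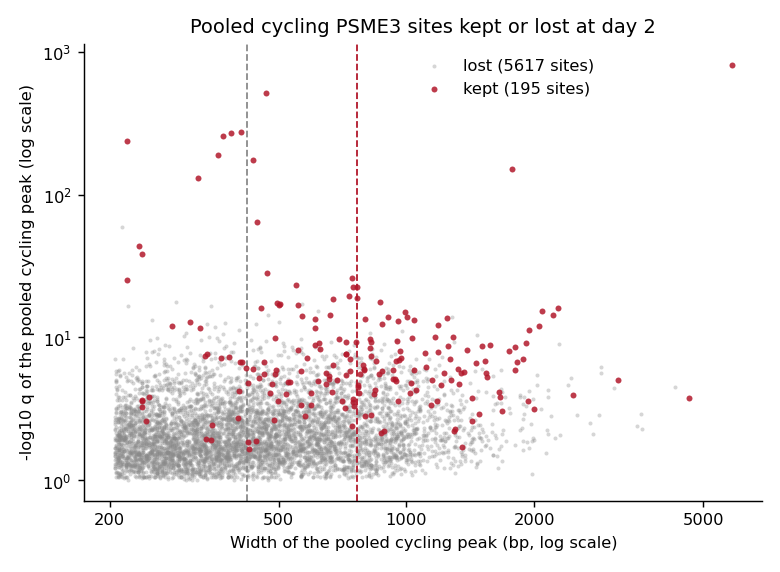
Width (bp, log scale) and −log10 q (log scale) of the 5812 pooled cycling PSME3 sites, each point a site, kept in red and lost in grey. Dashed lines are the median widths, 763 bp for kept and 422 bp for lost sites, and the kept sites lie toward the wide and strong side of the cloud.

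Kept sites lay at gene starts more often than lost ones. Of kept pooled sites, 164 of 195 (84.1%, interval 78.2 to 88.9) were within 1 kb of a gene start, against 3468 of 5617 lost sites (61.7%, 60.5 to 63.0). Another 11.3% of kept and 23.7% of lost sites were inside genes, and 4.62% and 14.5% outside them. In the replicate lists the shares near a start were 82.4% against 53.3%, 83.2% against 71.5% and 83.4% against 72.5%. The difference averaged 17.2 percentage points ± 10.3 (SD, n = 3; positive in 3 of 3, exact sign-flip permutation test, two-sided p = 0.25). Without replicate 1 it was 11.3 points, and with the crosslinked list alone 6.35 points (pooled 11.99). Where at least 50% of the cycling peak had to be covered, it was 12.4 points over replicates and 3.58 points in the pooled list, against 22.4 points there by the 1 bp rule. The kept shares of the 3 lists spread by 1.08 points and the lost shares by 19.2 points. Within the highest group by q the pooled shares were 84.2% and 78.3%, and the mean difference over replicates was 6.92 points and positive in 2 of 3.

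Kept sites sat further upstream of the start than lost ones. Among 141 kept and 2906 lost sites near a gene start of known strand, the peak centre lay a median of 125 bp upstream (quartiles −299 to 104) for kept and 27.5 bp downstream for lost sites. The centre was upstream at 65.2% and 44.6% of them. In replicates 1 to 3 the median positions were −147 against −69.5 bp, −184 against −18.5 bp and −134.5 against 32 bp. The mean difference was −136.5 bp ± 51.1 (SD, n = 3), upstream in 3 of 3 replicates (exact sign-flip permutation test, two-sided p = 0.25). Starts of different genes on both strands lay inside or within 1 kb of 28.4% of kept (21.1 to 36.6) and 20.6% of lost sites (19.2 to 22.1). The mean difference over replicates was 6.15 points ± 0.81 (SD, n = 3), positive in 3 of 3. The 1 kb was counted from the peak edges, so the stretch searched was longer at the wider kept sites. In the highest group by q these shares were 27.8% and 25.2%, and the median positions −111.5 and −16 bp.

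**Figure D3:**
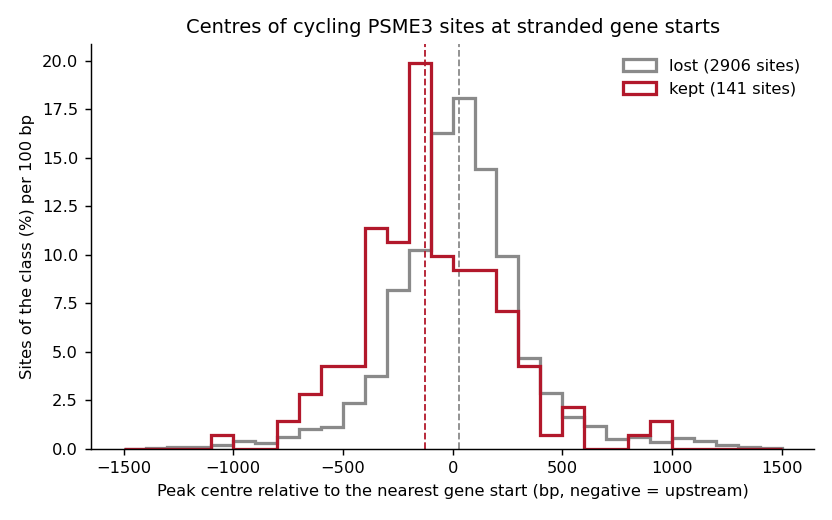
Distance from the peak centre to the nearest gene start of known strand (bp, negative is upstream) for 141 kept (red) and 2906 lost (grey) pooled cycling sites, as the share of each class (%) per 100 bp. Dashed lines are the medians, −125 bp for kept and 27.5 bp for lost sites.

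H3K4me3 at day 2 covered more of the kept than of the lost sites, while in cycling cells the order differed between lists. A peak of the pooled cycling H3K4me3 list covered 178 of 195 kept (91.3%) and 93.7% of lost sites. In replicates 1 to 3 these cycling shares were 90.4% against 87.4%, 89.4% against 93.8% and 89.0% against 97.2%. In the highest group by q they were 89.2% and 97.5%, and without the sites that a fresh list shared 97.8% and 93.7%. Peaks of both frozen day 2 H3K4me3 lists covered 183 of 195 kept (93.8%) and 4215 of 5617 lost sites (75.0%). In replicates 1 to 3 the day 2 shares were 94.1% against 65.1%, 93.8% against 82.8% and 91.7% against 85.5%. The difference averaged 15.4 percentage points ± 12.01 (SD, n = 3; positive in 3 of 3, exact sign-flip permutation test, two-sided p = 0.25). Without replicate 1 it was 8.61 points. With the crosslinked PSME3 list alone it was 5.90 points, and with 50% of the cycling peak covered 9.96 points (pooled 5.51, against 18.8 by the 1 bp rule), each positive in 2 of 3. Among sites near a gene start, where nearly all carried the mark, the pooled shares were 98.2% and 96.4%, and the mean difference over replicates was 2.72 points and positive in 2 of 3. Away from starts they were 22 of 31 kept (71.0%, interval 52.0 to 85.8) and 871 of 2149 lost sites (40.5%, 38.4 to 42.6), and the mean difference over replicates was 22.4 points and positive in 3 of 3. In the highest group by q they were 92.8% and 89.4% over all sites, with a mean difference of 6.77 points, positive in 2 of 3. Most lost sites thus had an H3K4me3 peak but no listed PSME3 peak at day 2.

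**Figure D4:**
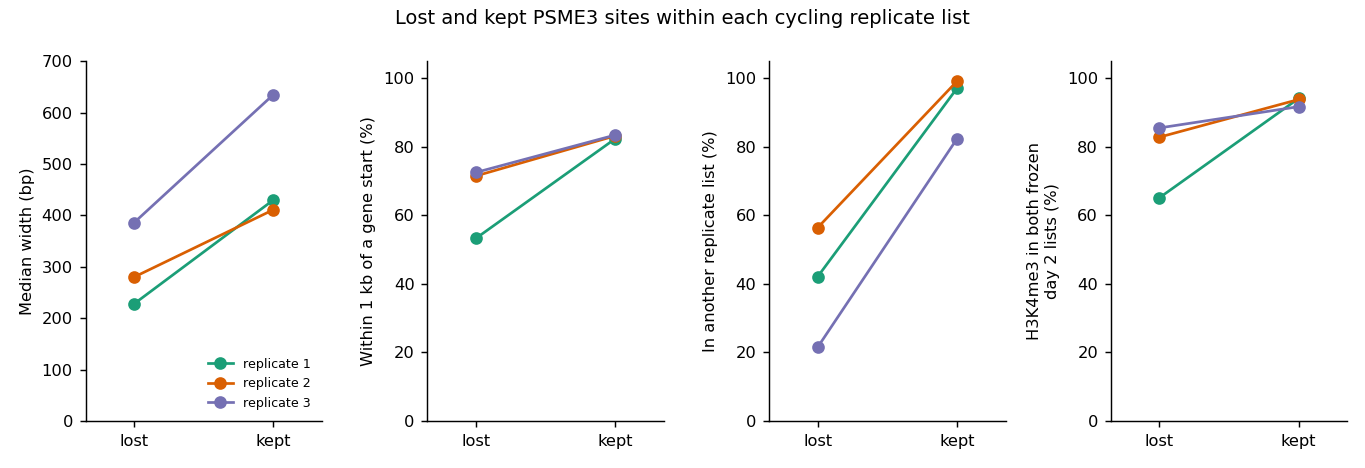
Lost and kept PSME3 sites within each cycling replicate list: median width (bp), and the shares (%) within 1 kb of a gene start, with a peak in another replicate list and with an H3K4me3 peak in both frozen day 2 lists. Each coloured line joins the lost and kept values of 1 replicate, and all 12 lines rise from lost to kept.

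Away from cycling H3K4me3 peaks, 17 sites were kept and 354 lost, a kept share of 4.58%. At sites with such a peak the share was 3.27%. Of the 17 kept sites, 13 were in a fresh day 2 list, 12 were in 3 replicate lists, 12 lay inside genes away from starts and 3 near a start. The lost sites without the mark were mostly away from starts as well, with 176 inside genes and 34 near a start (9.60%), and 0 of the 354 were in 3 replicate lists. The kept ones included rank 1 of the pooled list by q, a 5830 bp site inside AY036118 with a −log10 q of 808. Others lay inside Jarid2, Cdk8, Lars2, Zc3h7a, Gphn and Camk1d. Both sites on the mitochondrial chromosome, which holds no nucleosomes, were also among them. A site on the mitochondrial chromosome had a pooled fold enrichment of 1.17 and the other 1.13, the lowest of all kept sites. Without the sites that a fresh list shared, 161 of 180 kept sites were near a start (89.4%).

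Fbrs, which encodes the Polycomb-associated protein fibrosin, carried the kept site with the highest pooled fold enrichment, 20.1 (chromosome 7, 127477459 to 127479228, 1770 bp). Its fold enrichment was 16.6, 16.5 and 23.4 in cycling replicates 1 to 3, 15.4 in the frozen native list and 10.3 in the frozen crosslinked list. It ranked 3 of 186 in the native list and 1 of 77 in the crosslinked list, and both fresh lists held it.

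Jarid2, a subunit of Polycomb repressive complexes, held a 445 bp kept site inside the gene, away from its start and from H3K4me3 (chromosome 13, 44869567 to 44870011). Its values were 19.3, 8.82 and 8.22 in the cycling replicates, 6.52 in the native and 7.79 in the crosslinked list.

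At 4 other kept promoters the 3 cycling replicates and both frozen lists each held a peak. Tbl2, a protein of the endoplasmic reticulum, had fold enrichments of 7.43, 5.31 and 6.11 in the cycling replicates, 6.90 native and 5.08 crosslinked. Mtrf1l, a release factor of mitochondrial translation, had 8.83, 6.42 and 7.53, then 10.3 native and 5.77 crosslinked. Myo6, an actin motor that moves toward the minus end, had 9.70, 5.45 and 5.16, then 7.22 native and 5.08 crosslinked. Sertad2, a transcriptional coregulator, had 8.65, 5.26 and 6.58, then 9.89 native and 4.29 crosslinked. A separate site at another start of Sertad2 (chromosome 11, 20542495 to 20543216) was kept as well.

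The other kept sites of the 10 with the highest pooled fold enrichment among the 43 held by both frozen lists and 3 replicates lay inside genes. They were in the lncRNA genes Gm30821 (pooled fold enrichment 8.79), Gm36876 (6.96) and Gm46595 (5.89), and in an intragenic stretch shared by Cmss1 and Filip1l (6.26). All 4 were in a fresh day 2 list and had no cycling H3K4me3 peak.

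Lost sites could be as strong in cycling cells. The 128 lost sites found in 3 replicate lists included 102 near a gene start and 0 in a fresh list. Zbtb22, a zinc finger protein, had the highest pooled fold enrichment of them at 6.20, with 8.52, 4.44 and 4.37 in replicates 1 to 3. Hrob, a homologous recombination factor, had 5.60 pooled and 6.65, 6.25 and 6.35 in the replicates. Rhpn2 had 5.61 pooled and 6.39, 4.77 and 5.54. These pooled values are near those of the kept sites at Myo6 and Sertad2, 5.86 and 5.85, but no frozen day 2 peak overlapped them.

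The remaining lost sites chosen by the same rule had pooled fold enrichments from 4.74 to 5.46. They lay inside Snx15, a sorting nexin, and Gnao1, a G protein subunit, at the starts of Yju2, a splicing factor, Gpr155, Aph1b, a γ-secretase subunit, and Mphosph9, and outside genes on chromosome 14. Gnao1 was the only one of the 10 without an H3K4me3 peak in both frozen day 2 lists.

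**Figure D5:**
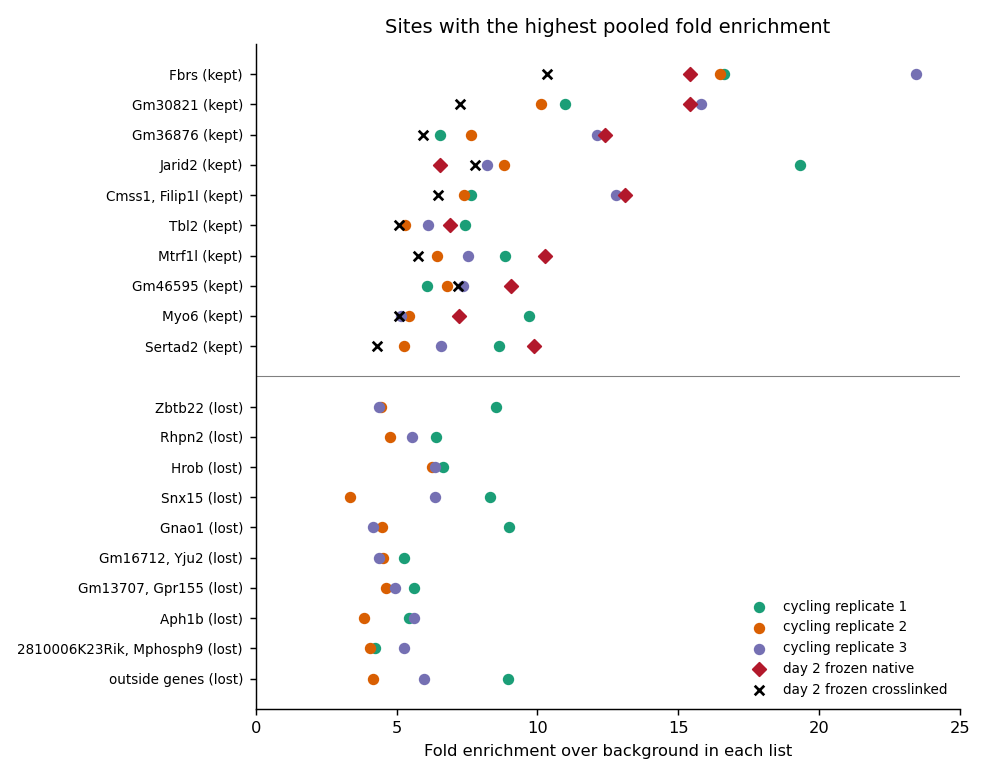
Fold enrichment over background of PSME3 in each cycling replicate list (circles) and frozen day 2 list (diamond, native; cross, crosslinked) for the 10 kept and 10 lost sites with the highest pooled values by the naming rule, labelled by gene. Lost sites have no day 2 points, and in replicate 3 Fbrs reaches 23.4 while the lost sites reach up to 6.37.

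By gene, 4608 genes had a pooled cycling site within 1 kb of their start, and 236 of these were kept (5.12%). For protein-coding genes it was 185 of 3862 (4.79%), and for lncRNA genes 34 of 609 (5.58%). Of 42 tRNA genes 9 were kept, all at the mitochondrial sites. A site near 2 starts counts for both genes. The 14 lists of genes held 211 genes with a site, of which 12 were kept (5.69%), near the share of all genes.

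Genes of RNA processing and RNA polymerase II made up 8 of those 12. Of 27 splicing factor genes with a site, 5 were kept (18.5%), and of 16 genes of RNA polymerase II and elongation, 3 (18.8%), against 5.12% of all genes. Hnrnpl, an RNA-binding splicing regulator, had fold enrichments of 5.95 and 4.92 in replicates 1 and 3 and none listed in replicate 2, 5.41 native and 4.33 crosslinked. Snrpd3, a core protein of the spliceosomal snRNPs, had 5.95, 3.95 and 3.47, then 4.68 native and 4.19 crosslinked, at a site shared with Gucd1. Srsf10, an SR protein, and Ddx5, an RNA helicase, were found in replicate 3 and the native list alone, with pooled values of 2.94 and 2.74. Hnrnpa2b1, which shares its promoter with Cbx3, was found in replicate 3 and the crosslinked list alone, at 3.14 pooled.

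Cdk9, the kinase that releases paused polymerase, had fold enrichments of 4.57, 5.10 and 3.95 in the replicates and 4.71 in the native list. Ell, an elongation factor, had 4.80, 3.93 and 4.12, then 5.48 native. Neither had a crosslinked peak. Brd2, a reader of acetylated histones, had a site of 3150 bp with 4.53 and 4.29 in replicates 1 and 3, 5.45 native and 4.06 crosslinked.

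Sp1, the factor that binds GC boxes, had the highest pooled fold enrichment of the 12 kept list genes, 4.33. Its values were 5.55, 4.57 and 6.08 in the cycling replicates, 7.28 native and 4.99 crosslinked. Ep300, a histone acetyltransferase, was the other kept gene of 20 chromatin and growth regulators with a site (10%, against 5.12% of all genes). It was found in replicate 3 and the native list alone (pooled 2.58). Egr1 was the 1 kept gene of 16 immediate early genes, at 5.23, 4.02 and 4.98, then 5.05 native and 5.47 crosslinked. Dnaja1, a co-chaperone, was the 1 kept gene of 17 chaperone genes (5.88%, near the 5.12% of all genes), again in replicate 3 and the native list alone.

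The 1 kept immediate early gene of 16 (6.25%) is near the 5.12% of all genes. Fos and Junb, subunits of the AP-1 transcription factor, had wide cycling sites of 2160 and 3086 bp with pooled fold enrichments of 3.51 and 2.97, in 2 and 3 replicate lists, and both were lost. Jun (3.11) and Myc (2.61) were lost too. Egr1, at 3.57 pooled and rank 185 of 5812 by q, stood above Junb at rank 664 and Fos at rank 717.

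No gene of the list of muscle regulators and fusion genes was kept. All 9 of them with a cycling site lost it, namely Myod1, Mef2d, Pax7, Cdh2, Id2, Id3, Id4, Hes6 and Hey1. A count of 0 in 9 allows a share of up to 33.3%, well above the 5.12% of all genes. Id3, an inhibitor of bHLH factors, and the Notch target Hey1 had the highest pooled fold enrichments at 3.26 and 3.27, Myod1 had 3.00, and the other 6 had 2.38 to 3.04. By q, Id3 and Hey1 ranked 1274 and 1323 of 5812, the others ranked 3623 or lower in the list, and none was in more than 1 replicate list. All 9 carried H3K4me3 in both frozen day 2 lists. Among contractile genes Actn3 and Tpm2 had a site, and both lost it.

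In 7 other lists no gene had a kept site at its start. These were replication-dependent histones (0 of 29, limit 10.3%), cytoskeleton and adhesion (0 of 25, limit 12%), S phase and mitosis (0 of 17, limit 17.6%), ribosomal proteins (0 of 11), proteasome subunits and activators (0 of 10), small nucleolar RNA hosts and nuclear lncRNAs (0 of 8), and small nuclear RNA genes (0 of 4). Each limit is above the share of all genes, so a lower share in these lists was not detectable. Pdlim7, of the cytoskeleton list, had a kept site inside the gene, in 3 replicate lists and the native list, while the site at its start was lost. Psme3 itself, Rprd1a, the integrin gene Itgb3 and Myog had no pooled cycling site at their starts. Sites at Psme3ip1 (fold enrichment 2.97), Nudc (2.82) and Myadm (2.84 and 2.77) were all lost. Those at Nudc and Myadm were in no replicate list, and only 0.263% of all such sites were kept.

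Promoters at kept sites were rich in GC boxes. In windows from 250 bases before to 50 after the start, a GC box on either strand was found in 84.3% of 223 kept windows (interval 78.8 to 88.8), in 73.1% of 4087 lost windows and in 35.7% of the 32851 windows of the promoter table. The kept windows belonged to 181 genes. Genes without a window in the table, such as Egr1, and chromosome 18 were not used here, nor in the positions relative to stranded starts. Lost windows of the highest group by q had it in 74.4% (70.2 to 78.4). The median GC content was 66.3% at kept, 63.3% at lost and 52.7% over the whole table. A CCAAT box was found in 39.9% of kept (33.4 to 46.7), 42.3% of lost and 37.4% of the table's windows. Lost windows of the highest group by q had it in 49.3% (44.65 to 54.04), more than the kept ones. In kept, lost and all windows of the table, the TATA box TATAAA was found in 4.04%, 5.02% and 13.6%. The letters TGACGTCA were found in 0.897%, 3.06% and 1.79%, and in 1.76% of lost windows of the highest group by q. CACGTG was found in 8.07%, 8.955% and 7.15%, and GATAAG in 3.59%, 3.79% and 7.44%. Windows of alternative starts of a gene overlap, so the intervals are too narrow, and a match is only the presence of these letters.

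Few day 2 peaks stood at places without a cycling site. The native list had 5, at the starts of Tom1, an endosomal sorting protein, and 5031439G07Rik, and inside Camta1, A430078I02Rik and Kcnip3. The crosslinked list had 3, inside the zinc transporter gene Slc30a4 and at 2 places on an unplaced sequence. None was in any cycling replicate list, and their fold enrichments were 4.43 to 6.13 native and 1.82 to 2.15 crosslinked.

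Cycling lists were also compared at equal length. Each cycling replicate was reduced to its 186 highest peaks by q, as many as the frozen native list holds, which changes length and strength together. Cycling replicates then shared 30.6% to 34.9% of their peaks with each other. They shared 37.1%, 36.0% and 46.2% with the frozen native day 2 list, a mean of 39.8% ± 5.61 (SD, n = 3). Ranked by fold enrichment the shares were 25.8% to 27.4% and 34.4%, 32.3% and 38.2%. At the 77 peaks of the crosslinked list they were 40.3% to 42.9% between cycling replicates and 35.1%, 39.0% and 45.5% with day 2. The native list shared more with each cycling replicate than the replicates shared among themselves by both rankings, and the crosslinked list shared less with 2 of the 3. No test was made of these overlaps, which were computed after the other values were seen. The full cycling replicate lists were at least 4.17 times as long as the native list. Read numbers behind the lists are not known here, so the part of depth in their length was not tested.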

How the data were processed

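CUT&RUN for PSME3, H3K4me3 and IgG was done in 21 C2C12 samples. The lists of 14 PSME3 and H3K4me3 samples and the pooled cycling lists were used, and the 7 IgG samples were not analysed here. Per the submitters' processing notes the authors used Trim Galore, Bowtie2, MACS2 and mm10, with versions and the control library not given in the sources used here. The deposited lists hold, per peak, fold enrichment (a ratio) and −log10 of the p-value and of the q-value, and the largest q was under 0.1. They hold no read numbers, so depth is unknown, and intervals cover counting error only.

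Lists were compared by overlap of at least 1 bp. Genes and promoters were taken from RefSeq GRCm38.p6. A gene start was the stranded start for 27025 genes and either gene boundary for the others, with pseudogenes left out. Within each cycling replicate list, kept and lost sites were compared, and the 3 differences were tested by an exact two-sided sign-flip permutation test. The scripts were tested on simulated lists. The study describes the 3 cycling replicates as biological, but how they were grown apart is not given in the sources used here.

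The named sites were the 10 kept in both frozen lists and 3 replicates, and the 10 lost in 3 replicates, with the highest pooled fold enrichment, and all kept members of the gene lists. Myod1, other muscle and immediate early genes, the sites without H3K4me3 and the genes of day 2 peaks without a cycling site were named after their values were seen. The members, classes and gene lists were chosen with earlier results of these data known. Position relative to the start, equal-length lists, stranded starts alone, H3K4me3 at sites near and away from starts and the omission of sites in fresh lists were added after the data were seen. Python 3.11.15 with numpy 2.4.6, pandas 2.3.3, scipy 1.17.1 and matplotlib 3.10.9 was used.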

Additional observations from a re-analysis of the deposited data

How the results depend on the processing

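The kept share of pooled sites was 3.36%. It was 18.3% (153 of 837) among pooled peaks in at least 2 replicate lists, 6.22% with a cycling q-value of at most 0.01, 1.27% with the crosslinked list alone and 0.912% when at least 50% of the cycling peak had to be covered. With a replicate left out, it ranged from 6.36% to 11.8% of the pooled peaks found in at least 1 of the other 2 replicate lists, the highest being without replicate 3. The mean differences over replicates in width, position, replicate support and H3K4me3 kept their direction under every alternative run. At 50% coverage the log2 width ratio (0.73) was 0.29 over replicates and 0.10 in the pooled list (0.85 by the 1 bp rule). Without replicate 1 the near-start difference (17.2 points) was 11.3 and the H3K4me3 difference (15.4 points) 8.61. The near-start difference was 6.35 with the crosslinked list alone, and at 50% coverage 12.4 over replicates and 3.58 in the pooled list (22.4 by the 1 bp rule). In the highest of 10 rank groups by q it was 6.92, positive in 2 of 3 replicates. Replicate support (52.8 points) was 34.6 in the highest of 10 rank groups by q. The H3K4me3 difference was 6.77 in that rank group, 5.90 with the crosslinked list alone, 9.96 with 50% coverage and 2.72 at gene starts alone, each positive in 2 of 3 replicates. Away from starts it was 22.4, positive in 3 of 3. Without the replicate block, the 4 differences had the same sizes (0.73, 17.2, 52.8 and 15.4), each with p = 0.1, the smallest that an exact unpaired permutation test of 3 against 3 gives. Without the sites that a fresh list shared, the near-start difference was 24.4 and the H3K4me3 difference 20.5 points. A single library per day 2 preparation and unknown depth limit every kept share.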

Other observations

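Some kept genes outside the lists are given here as values only. They were picked by eye after their values were seen, from 236 kept genes, and say nothing of how often such genes were kept. The GC-box factors Sp4 (pooled fold enrichment 4.41) and Klf16 (3.83), the zinc finger proteins Maz (3.64) and Zbtb7b (3.67) and the CCAAT-binding subunit Nfya (2.96) each had a kept site at the start. Sin3a, the scaffold of a histone deacetylase complex, had 2 kept sites (4.58 and 4.21). Among other genes of histone-modifying enzymes or their partners with a kept site were Carm1 (5.89), Brpf1 (5.31), Kdm4a (3.77), Kat6b (3.65) and Kdm3a (2.89).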
